A study of Mus musculus with 5 samples.

Results

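The miRNAs described here are both strands of miR-140 and miR-455, the 4 rows mmu-miR-140-3p, mmu-miR-140-5p, mmu-miR-455-3p and mmu-miR-455-5p of a table of 1966 mouse miRNAs, chosen by name for their link to Sox9 and cartilage. The species prefix is left out below. All 4 had counts, among 517 miRNAs that did. They were measured by small RNA sequencing in extracellular vesicles (EVs), membrane-bound particles that cells release, from mesenchymal stem cells of C57BL/6-GFP transgenic mice. Freeze-dried EVs gave 3 libraries and EVs that were not freeze-dried gave 2, and the series compared the miRNA content of the groups. Per the labels' protocols, all EVs came from medium that the cells had conditioned for 48 h with reduced serum. For freeze-drying, EVs were frozen in DPBS with 25 mM trehalose, dried overnight and taken up in water. The protocols name DPBS with or without trehalose as buffers for EVs in general, and do not say which of them held the EVs that were not freeze-dried. The labels also do not say how long or at which temperature the other EVs were stored, whether the replicates came from separate cultures, or how many animals gave the cells. The p-values therefore measure only the spread between these libraries, which may be technical.

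A miRNA is cut from a hairpin precursor as a duplex. Of its 5p and 3p strands, one is usually kept in an Argonaute protein, where its seed pairs with messenger RNAs and represses them, and the other is mostly lost. Sox9, the master transcription factor of chondrocytes, drives miR-140 together with its host gene Wwp2, which encodes a ubiquitin ligase. miR-455 lies in Col27a1, the gene of a fibrillar collagen of cartilage that Sox9 also activates. Mice without miR-140 have shortened long bones and skull bones and develop osteoarthritis-like changes. miR-140-5p represses the aggrecan-cleaving protease gene Adamts5. miR-455-3p has been reported to repress genes of TGF-beta signalling, among them Smad2. Both miRNAs rise when mesenchymal stem cells are turned into chondrocytes in culture.

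The mature sequences are printed because the strands are told apart by them. RefSeq (GRCm38.p6) gave 3 of the 4, and the capitals mark the seed, bases 2 to 8 from the 5′ end.
miR-140-3p: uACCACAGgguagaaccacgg
miR-455-3p: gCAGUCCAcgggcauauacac
miR-455-5p: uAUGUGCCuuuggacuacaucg
The 3 seeds differ from each other. The seed of miR-455-3p belonged to no other mature mouse miRNA of the RefSeq table. That of miR-140-3p was shared with miR-497b and that of miR-455-5p with miR-5129-3p, and neither of these had a count. The counts thus stand for seeds that no other detected miRNA of that table carried. In human chondrocytes miR-140-3p is known to occur also with a shifted 5′ end and therefore another seed, and counts per mature miRNA do not separate such forms.

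The miR-140 hairpin has 70 bases on the plus strand of chromosome 8, at chr8:107551244-107551313, and is shown with miR-140-3p in capitals, at bases 45 to 65.
Mir140: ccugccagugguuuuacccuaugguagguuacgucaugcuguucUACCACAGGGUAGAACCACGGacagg
In GENCODE M21, which uses GRCm38, this hairpin lies within intron 16 of the 24-exon principal transcript of Wwp2, on the same strand. The Mir455 gene spans 63256851 to 63256932 of chromosome 4, on the plus strand, within intron 10 of the 61-exon principal transcript of Col27a1. miR-455-5p lies at 63256867 to 63256888 and miR-455-3p at 63256904 to 63256924.

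The libraries differed in depth. Freeze-dried replicates 1, 2 and 3 had 2914305, 2473178 and 192450 counts, and not freeze-dried replicates 1 and 2 had 912080 and 131507. Freeze-dried replicate 3 and not freeze-dried replicate 2 are called shallow here and the other 3 libraries deep. All 14 miRNAs of a mesenchymal marker list had counts. Their sum took 18.6% to 21.8% of the counts in freeze-dried EVs and 25.4% to 27.0% in not freeze-dried EVs. No miRNA passed the test between the groups. edgeR's quasi-likelihood test called 0 of 327 tested miRNAs higher and 0 lower at an adjusted p under 0.05, a background of 0% in each direction, where the smallest Benjamini-Hochberg adjusted p was 0.976. DESeq2 and limma-voom called 0 as well. The unadjusted p was under 0.05 for 9 miRNAs in edgeR, for 16 in DESeq2 and for 15 in limma-voom.

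All 4 strands passed the filter on low counts and were among the 327. None of the 4 was called, and in edgeR each had an adjusted p of 0.98. Levels are given as CPM, that is counts scaled to a common library size, normalised by TMM, and so depend on what else a library holds. They were not divided by length, since mature miRNAs are sequenced whole. Library preparation can favour one short sequence over another, and its part in differences between strands was not tested.

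miR-140-3p was by far the most abundant of the 4 strands in each library. It stood at 21182, 25091 and 9067 CPM in freeze-dried replicates 1, 2 and 3, and at 22982 and 15971 CPM in not freeze-dried replicates 1 and 2. Freeze-dried replicate 3 was the lowest library, the 2 deep freeze-dried libraries stood on either side of the deep not freeze-dried one, and the groups overlapped. Its rank among all miRNAs of a library was 11, 10 and 26 in freeze-dried EVs and 10 and 13 in not freeze-dried EVs. The means were 18447 ± 8355 CPM in freeze-dried EVs (n = 3, SD) and 19476 ± 4958 CPM in not freeze-dried EVs (n = 2, SD). The fitted log2 fold change was -0.08 (SE 0.42, 95% interval -1.04 to 0.88), an interval of 0.488 to 1.84 as a fold. Its sign rested on single libraries. It became 0.29 when freeze-dried replicate 3 was left out, 0.27 when not freeze-dried replicate 1 was, and 0.27 with the replicate number as a block.

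The low value of miR-140-3p in freeze-dried replicate 3 was 1594 counts, 0.828% of that library (exact binomial 95% interval 0.788% to 0.870%), far from the 2.00% and 2.61% of freeze-dried replicates 1 and 2. Intervals of this kind cover counting error only, since no source used here says that PCR copies of a molecule were removed. On the log2 scale this library was 1.35 below the mean of the other freeze-dried libraries, a 2.54-fold lower level. Of 89 abundant tested miRNAs, those averaging at least 1000 CPM, it had the 6th lowest deviation in that library. With miR-140-3p itself included, 14 of the 89 deviated by at least as much in either direction. Compared within a depth class, miR-140-3p averaged 23137 ± 2764 CPM in the deep freeze-dried libraries (n = 2, SD) against 22982 CPM in the deep not freeze-dried one. In the shallow libraries it was 9067 CPM freeze-dried against 15971 CPM not freeze-dried, a ratio of 0.568. Depth moved with this value, and its part in it was not tested. The shallow libraries also differed from the deep ones in content. For example, miR-146a-5p stood at 9977 CPM in freeze-dried replicate 3 and 11688 CPM in not freeze-dried replicate 2. In the deep libraries it stood at 138 and 78.8 CPM freeze-dried and 402 CPM not freeze-dried. Depth and such differences cannot be told apart here.

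miR-140-5p, the strand whose targets in cartilage are best known, was the rare partner. It had 445, 792 and 80 counts in freeze-dried replicates 1, 2 and 3, or 162, 307 and 455 CPM. In not freeze-dried replicates 1 and 2 it had 220 and 35 counts, or 216 and 268 CPM. The freeze-dried libraries held both the lowest and the highest value, and freeze-dried replicate 3, the lowest for miR-140-3p, was the highest for miR-140-5p. The means were 308 ± 147 CPM in freeze-dried EVs (n = 3, SD) and 242 ± 36.9 CPM in not freeze-dried EVs (n = 2, SD). Its fitted log2 fold change, 0.35, had an SE of 0.89 and a 95% interval from -1.65 to 2.35. With the replicate number as a block this became -0.11.

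**Figure D1:**
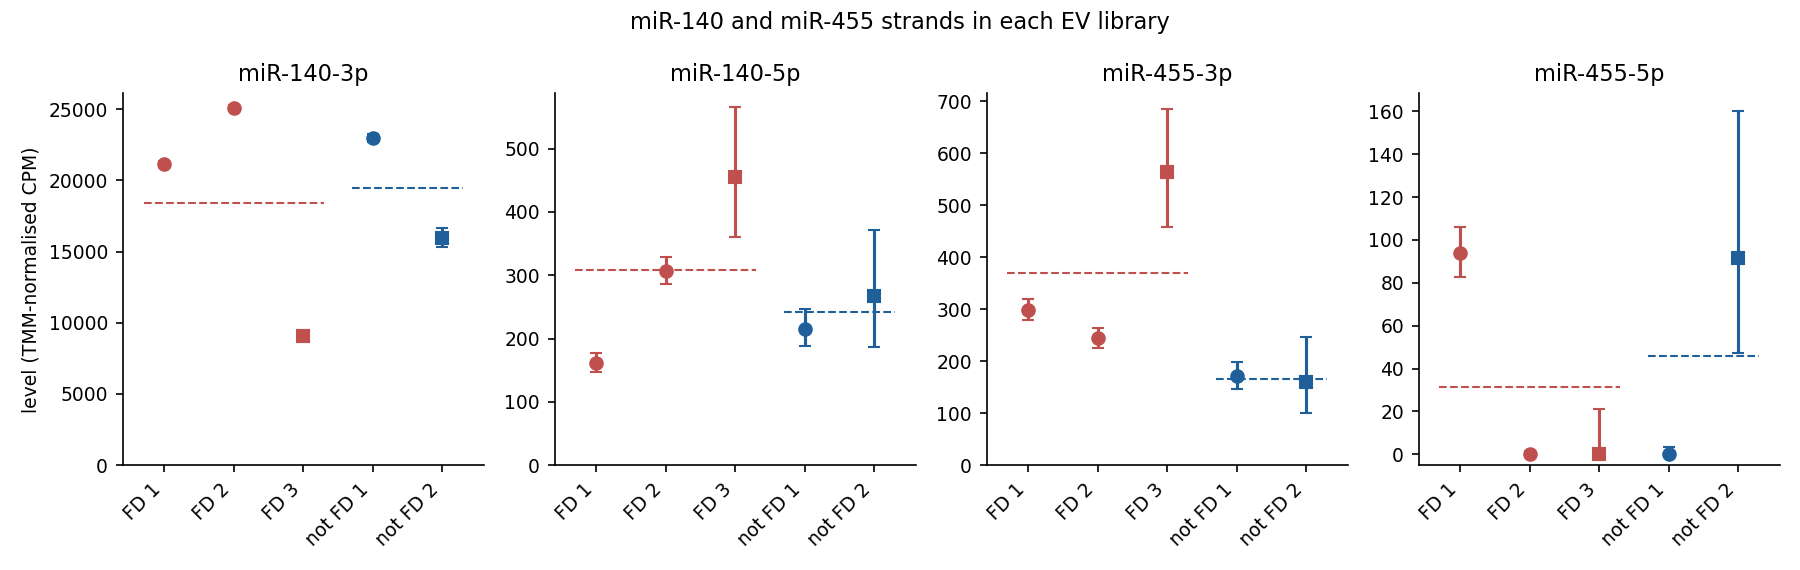
Level of each strand in TMM-normalised CPM (vertical axis, linear, a different scale in each panel) in the 5 libraries, freeze-dried (FD, red) and not freeze-dried (not FD, blue). Circles are deep and squares shallow libraries, bars are exact binomial 95% intervals for counting error, and dashed lines are group means. miR-455-3p is the 1 strand whose groups do not overlap, and miR-455-5p is at 0 in 3 of the 5 libraries.

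miR-455-3p was the 1 member whose groups did not overlap. It had 822, 630 and 99 counts in freeze-dried replicates 1, 2 and 3, or 299, 244 and 563 CPM. In not freeze-dried replicates 1 and 2 it had 174 and 21 counts, or 170 and 161 CPM. Every freeze-dried library was above both others, and the highest was again the shallow freeze-dried replicate 3. Such a separation was common in these data, since 29 of the 327 tested miRNAs, 8.87%, had all freeze-dried libraries above all not freeze-dried ones, and 28, or 8.56%, had all of them below, as had 0 of the 4 strands. The means were 369 ± 171 CPM in freeze-dried EVs (n = 3, SD) and 166 ± 6.97 CPM in not freeze-dried EVs (n = 2, SD).

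The fitted fold change of miR-455-3p was 2.22 (log2 1.15, SE 0.90, 95% interval -0.86 to 3.16), which was not called (edgeR adjusted p = 0.98), and 62 tested miRNAs had a smaller p. Its sign stayed positive in the 16 alternative fits, with log2 values between 0.65 and 1.55. The fits that left out libraries could hardly have turned the sign, since every freeze-dried library lay above both others. The deep libraries averaged 272 ± 38.3 CPM freeze-dried (n = 2, SD) against 170 CPM not freeze-dried, 1.59-fold, and the shallow ones stood at 563 against 161 CPM, 3.49-fold. The libraries were also thinned, in a single random draw, to an equal 131507 counts. They kept 47, 31 and 73 counts in freeze-dried EVs and 17 and 21 in not freeze-dried EVs. That draw gave the log2 value of 1.55. Before thinning, miR-455-3p took 0.0282%, 0.0255% and 0.0514% of the counts in freeze-dried EVs. In not freeze-dried EVs it took 0.0191% and 0.0160%. The separation was narrow in counting terms. The interval of not freeze-dried replicate 2, which rests on 21 counts, reached 246 CPM, above the 244 CPM of freeze-dried replicate 2.

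miR-455-5p was present in one library of each group and at 0 in the others. It had 258, 0 and 0 counts in freeze-dried replicates 1, 2 and 3, against 0 and 12 in not freeze-dried replicates 1 and 2. The libraries with counts stood at nearly the same level, 93.7 CPM in freeze-dried replicate 1 and 91.8 CPM in not freeze-dried replicate 2 (exact binomial interval 47.4 to 160). A count of 0 allows up to 3 counts, or 1.16 CPM in freeze-dried replicate 2, 17.1 in freeze-dried replicate 3 and 2.94 in not freeze-dried replicate 1. Freeze-dried replicate 2 was a library of like depth and the same group as freeze-dried replicate 1. Its floor of 3 counts lay 80.5-fold below the 93.7 CPM of freeze-dried replicate 1. This fold leaves out the counting error of that 93.7 CPM (exact binomial interval 82.7 to 106) and any error beyond counting.

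The presence of miR-455-5p followed neither the treatment nor the depth of the libraries. The group means of 31.2 ± 54.1 CPM in freeze-dried EVs (n = 3, SD) and 45.9 ± 64.9 CPM in not freeze-dried EVs (n = 2, SD) have SDs larger than the means. The fitted log2 fold change of -0.49 had an SE of 3.15 (95% interval -7.55 to 6.57), so that these libraries set almost no bound on it, and it turned positive in 6 of 14 alternatives. A presence of this kind was not rare. Of 299 miRNAs with at least 100 counts in a deep library, 74, or 24.7%, had 0 in another deep library.

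The order of the levels held for the ends and not for the middle. miR-140-3p was highest in 5 of 5 libraries and miR-455-5p lowest in 5 of 5. miR-455-3p was above miR-140-5p in freeze-dried replicates 1 and 3 and below it in freeze-dried replicate 2 and in both not freeze-dried libraries. Their means over all libraries were 287 and 281 CPM, and the difference between them was not tested.

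The 3p strand took nearly all miR-140 counts. Its share was 99.2%, 98.8% and 95.2% in freeze-dried replicates 1, 2 and 3, and 99.1% and 98.4% in not freeze-dried replicates 1 and 2. Freeze-dried replicate 3 stood apart, with an exact binomial interval of 94.1% to 96.2% that ended below those of the other 4 libraries. In counts this was 131, 81.6 and 19.9 miR-140-3p reads for each miR-140-5p read in the freeze-dried libraries, against 107 and 59.7 in the not freeze-dried ones. The ratio was lowest in the shallow library of each group, and the part of depth in this was not tested. The mean share was 97.8% ± 2.2 in freeze-dried EVs (n = 3, SD) and 98.7% ± 0.51 in not freeze-dried EVs (n = 2, SD), which did not differ beyond the spread between libraries (p = 1 in an exact two-sided permutation test, which cannot go below 0.2). Without freeze-dried replicate 3 the difference of -0.96 percentage points became 0.31.

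For miR-455 the strand shares varied more between libraries. The 3p strand took 76.1% of 1080 counts in freeze-dried replicate 1 (exact binomial interval 73.5% to 78.6%) and 63.6% of 33 counts in not freeze-dried replicate 2 (interval 45.1% to 79.6%). It took 100% of 630 and 99 counts in freeze-dried replicates 2 and 3 and of 174 counts in not freeze-dried replicate 1. The libraries fell into those with a clear 5p share and those with none, and each group had both kinds. At the strand ratio of freeze-dried replicate 1, the miR-455-3p counts would have come with 198 miR-455-5p counts in freeze-dried replicate 2, 31.1 in freeze-dried replicate 3 and 54.6 in not freeze-dried replicate 1, where 0 were found. The mean 3p share was 92.0% ± 13.8 in freeze-dried EVs (n = 3, SD) and 81.8% ± 25.7 in not freeze-dried EVs (n = 2, SD), with p = 0.80 in the exact permutation test. Without not freeze-dried replicate 2 the difference of 10.2 percentage points became -7.96.

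**Figure D2:**
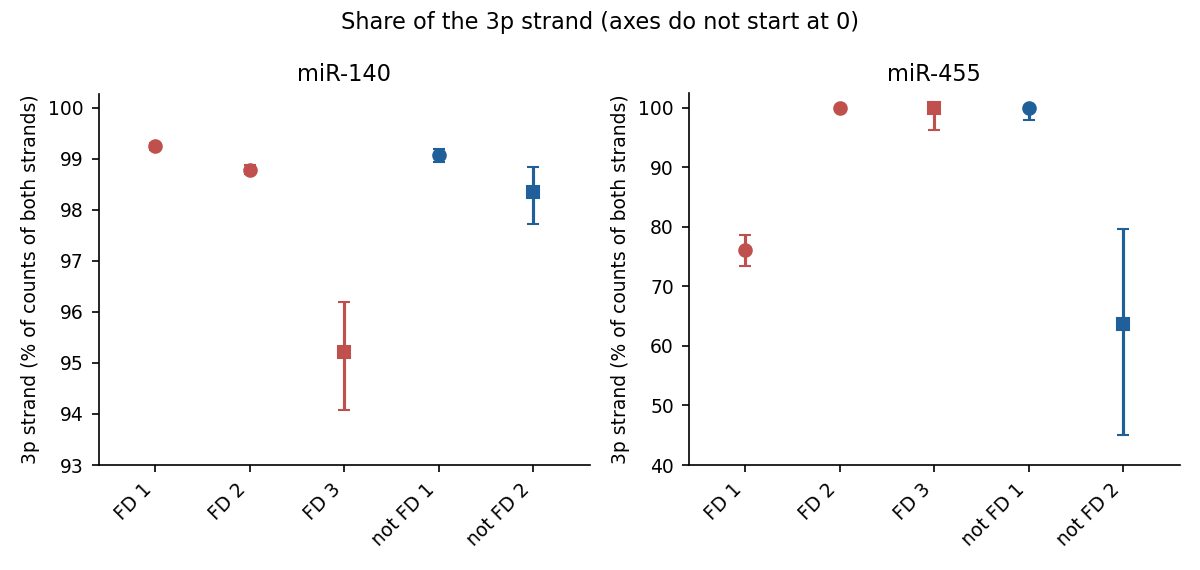
Share of the 3p strand among the counts of both strands (vertical axis, percent, not starting at 0) in freeze-dried (FD, red) and not freeze-dried (not FD, blue) libraries, circles deep and squares shallow, with exact binomial 95% intervals. miR-140 is lowest in freeze-dried replicate 3 at 95.2%, and miR-455 is below 100% in 1 library of each group.

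A fit of strand usage over all hairpin names with both strands tested, 71 of them, gave the same picture. edgeR's diffSpliceDGE called 0 of 71, 0%, with a lowest adjusted p of 0.082 and 6 at an unadjusted p under 0.05. limma's diffSplice also called 0, with 3 at an unadjusted p under 0.05. The change of the log2 ratio of 3p to 5p was -0.43 for miR-140 and 1.63 for miR-455 in freeze-dried EVs relative to the others, each with an adjusted p of 0.91. The median size of the change over the 71 hairpins was 0.96. The miR-140 ratio was among the steadier ones over the libraries. Its range of 2.72 on the log2 scale, with 0.5 added to each count, was the 14th smallest of 71, against a median of 5.95. That of miR-455 was 9.52, the 58th smallest. A strand at 0 in a library widens this range, as for miR-455, while both miR-140 strands had counts in every library. The rank therefore also depends on abundance, whose part was not tested.

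With all libraries summed, 188 hairpin names had at least 100 counts over both strands, 95 of them mostly 3p and 93 mostly 5p. miR-140, at 99.0% 3p from 150094 and 1572 counts, was the 59th most 3p-sided. Just above it was miR-760 and just below it miR-1843b. Among the 52 hairpins with at least 10000 counts its major strand took the 31st largest share, where the median was 99.4%. A strand share of this size was thus usual in this table of counts. Hairpins with no count on the other strand, some of them abundant, enter this median and these ranks. The part of read counting in that was not tested. miR-455, at 86.6% 3p from 1746 and 270 counts, was the 75th, between miR-466c at 88.6% and miR-199a, a mesenchymal miRNA, at 84.8%. This place rests on 1 library, since 258 of the 270 miR-455-5p counts came from freeze-dried replicate 1. Without it, an alternative chosen after seeing the data, miR-455 was 98.7% 3p from 924 and 12 counts and the 48th of 159 hairpin names, close to miR-140 at 98.8% and the 46th.

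**Figure D3:**
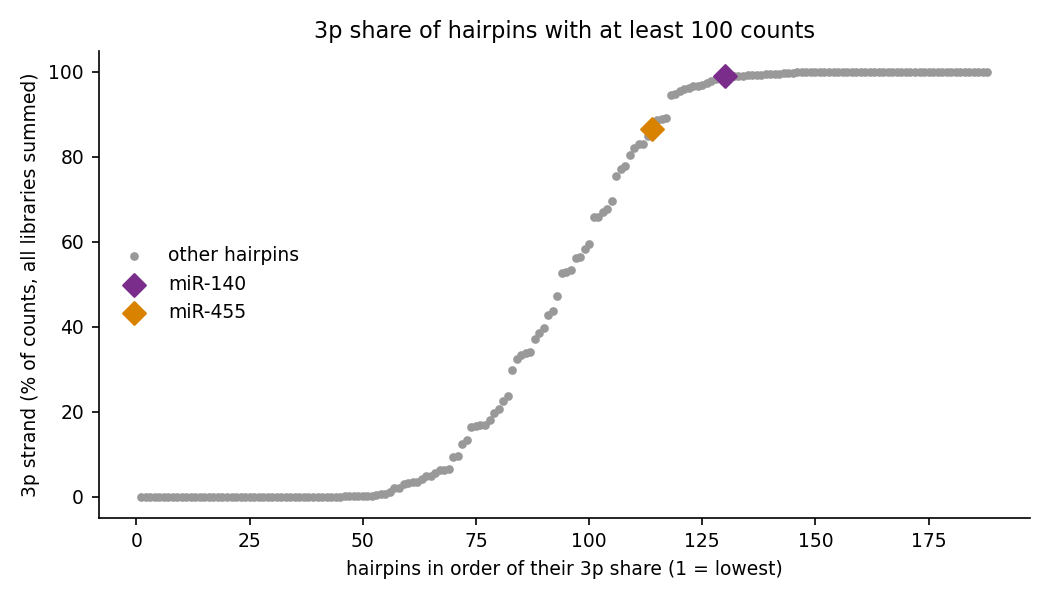
Share of the 3p strand (vertical axis, percent of counts with all libraries summed) of 188 hairpin names with at least 100 counts, in order of that share (horizontal axis). Diamonds mark miR-140 at 99.0% and miR-455 at 86.6%, and both lie on the 3p side. Without freeze-dried replicate 1 the share of miR-455 was 98.7%.

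Both miRNAs answer to Sox9 in chondrocytes, but their levels in these EVs were far apart. Counts of both miR-140 strands were 54.4, 104 and 16.8 times those of both miR-455 strands in freeze-dried replicates 1, 2 and 3, and 136 and 63.4 times in not freeze-dried replicates 1 and 2. The ratio varied more within the freeze-dried group than between the groups, and freeze-dried replicate 3 was again lowest. On the log2 scale the means were 5.51 ± 1.33 in freeze-dried EVs (n = 3, SD) and 6.54 ± 0.78 in not freeze-dried EVs (n = 2, SD), with p = 0.40 in the exact permutation test. The difference of -1.02 was -0.30 without freeze-dried replicate 3. Together the 4 strands took 2.05%, 2.67% and 0.921% of the counts in the freeze-dried libraries and 2.62% and 1.64% in the not freeze-dried ones, nearly all of it miR-140-3p, with p = 1 in the same exact permutation test.

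Other miRNAs reported in cartilage or with Sox9 were looked at as a list of 37, which leaves out the 4 strands. Counts were found for 32 and 29 were tested. edgeR called 0 higher and 0 lower. Fold changes were above 1 for 15 of the 29 and below 1 for the other 14. Over all tested miRNAs 167 of 327, or 51.1%, were above 1. The median log2 fold change was 0.07 in the list and 0.02 overall. The list took 9.71% to 11.8% of the counts in freeze-dried EVs and 10.0% to 11.8% in not freeze-dried EVs.

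In this list miR-140-3p would rank second by mean level. Above it was miR-320-3p, a miRNA abundant in vesicles, at 27143 ± 10419 CPM in freeze-dried EVs (n = 3, SD) and 19089 ± 144 CPM in not freeze-dried EVs (n = 2, SD). miR-221-3p, which represses the cell cycle inhibitor Cdkn1b, followed at 15364 ± 921 CPM in freeze-dried EVs (n = 3, SD) and 16156 ± 889 CPM in not freeze-dried EVs (n = 2, SD). miR-30a-5p and miR-26a-5p, broadly expressed miRNAs, came next, with log2 fold changes of 0.09 each (SE 0.31 and 0.28). miR-221-3p, miR-30a-5p and miR-26a-5p had tighter intervals than miR-140-3p.

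The other Sox9-linked miRNAs were rare or had no counts. Of 4 listed, miR-1247-5p, whose gene lies beside Dio3 and which has been reported to repress Sox9 in human chondrocytes, was the 1 with counts, at 78.9 ± 66.7 CPM in freeze-dried EVs (n = 3, SD) and 73.8 ± 28.6 CPM in not freeze-dried EVs (n = 2, SD). miR-675-5p and miR-675-3p, made from the H19 RNA and raised by Sox9 in human chondrocytes, had 0 counts in all libraries, as had miR-1247-3p. In the list, 3 tested miRNAs had groups that did not overlap, named here after their values were seen. miR-199a-3p was above in freeze-dried EVs, while miR-181a-5p and miR-29c-3p were below. This is 10.3% of 29, beside 17.4% of all tested miRNAs in either direction.

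**Figure D4:**
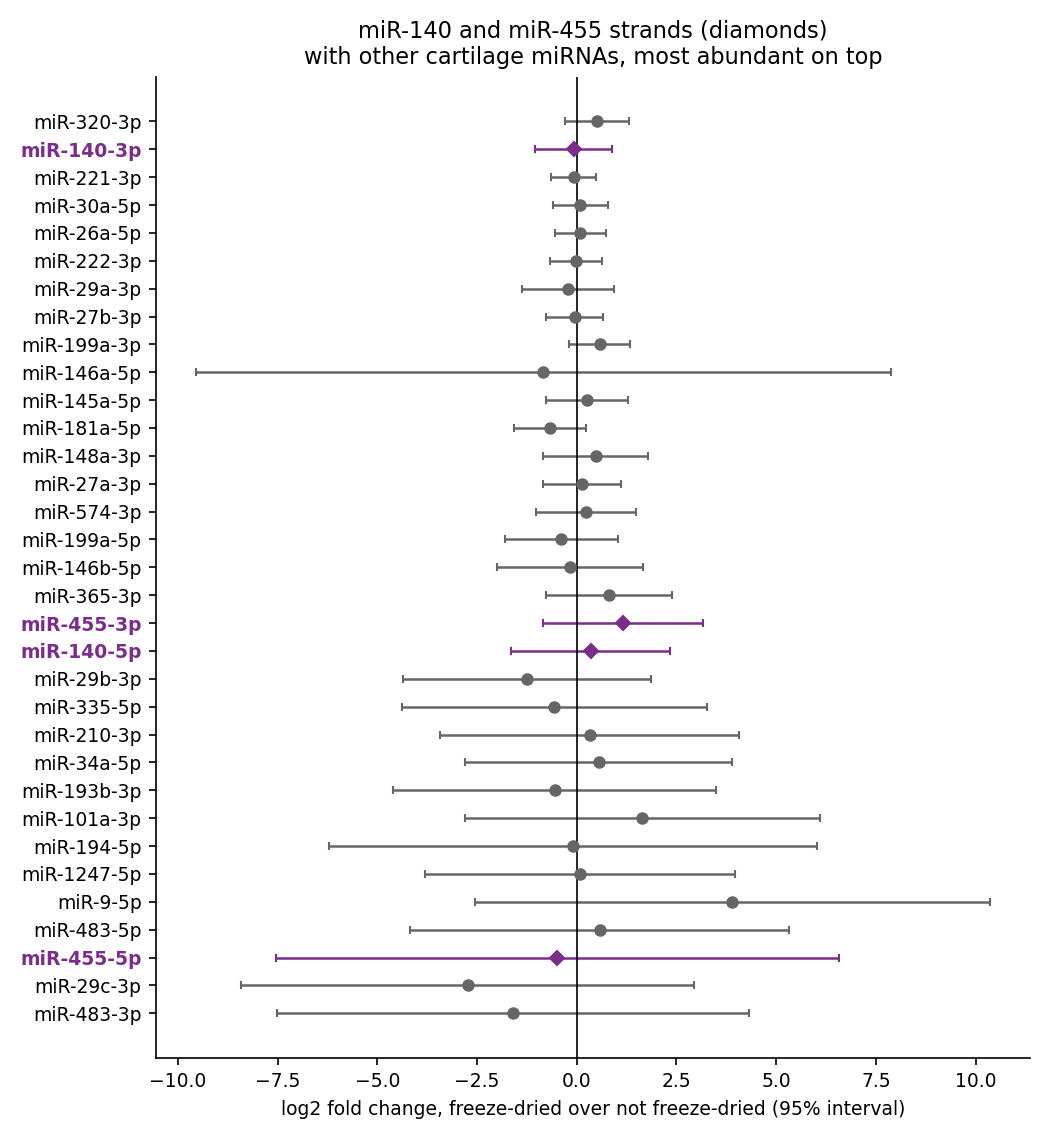
Log2 fold change of freeze-dried over not freeze-dried EVs (horizontal axis) with its 95% interval from edgeR for the 4 strands (purple diamonds) and the 29 other tested cartilage miRNAs (grey circles), most abundant on top. All intervals include 0, and that of miR-140-3p runs from -1.04 to 0.88. Intervals mostly widen toward the rarer miRNAs. An exception is miR-146a-5p, at a mean of 4457 CPM, with an interval of -9.55 to 7.88.

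The profile of each strand over the 5 libraries was set against the 89 tested miRNAs with at least 1000 CPM, by the root-mean-square distance of log2(CPM + 1) values centred on their mean, which describes 5 libraries and carries no test. Nearest to miR-140-3p were miR-22-3p, miR-129-5p and miR-351-5p, at distances of 0.18, 0.21 and 0.29 with a median of 0.61. Each of the 3 was also lowest in freeze-dried replicate 3. miR-22-3p, for example, had 5415, 6993 and 3043 CPM in freeze-dried EVs and 7959 and 5423 CPM in not freeze-dried EVs. Nearest to miR-140-5p were miR-320-3p, miR-423-5p and miR-1a-3p, at 0.19, 0.26 and 0.30, which were lowest in freeze-dried replicate 1 except for miR-423-5p, lowest in not freeze-dried replicate 1. The strands of miR-140 thus had different neighbours.

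Nearest to miR-455-3p were miR-669c-5p, let-7d-5p and let-7b-5p, at 0.28, 0.35 and 0.36 with a median of 0.74, and these were highest in freeze-dried replicate 3 as miR-455-3p was. For miR-455-5p the nearest was miR-30c-5p at 2.90, close to the median distance of 3.24, so no abundant miRNA had a profile like it. Rarer miRNAs, with levels closer to that of miR-455-5p, were not searched.

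**Figure D5:**
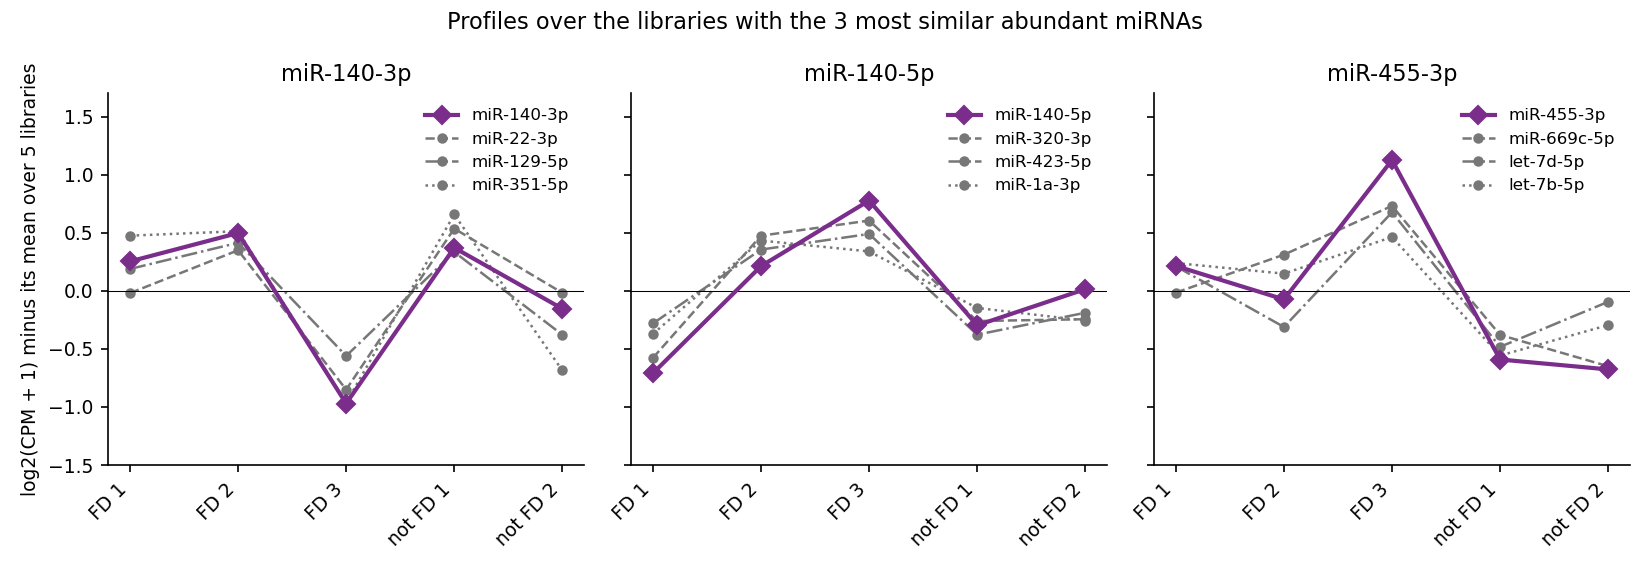
Log2(CPM + 1) minus its mean over the 5 libraries (vertical axis) for 3 strands (purple) and the 3 abundant miRNAs nearest to each (grey), in freeze-dried (FD) and not freeze-dried (not FD) libraries. miR-140-3p is lowest and miR-140-5p and miR-455-3p highest in freeze-dried replicate 3.

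Each list of markers of other cell types summed to less than miR-140-3p in every library, but not all were below the rarer strands. The gap was not always wide. The nervous system list reached 0.617% of the counts in freeze-dried EVs, beside a lowest miR-140-3p share of 0.828%, in freeze-dried replicate 3. The blood list, led by miR-451a, had counts for 4 of 6 members and summed to 282 to 390 CPM of raw totals in freeze-dried EVs and 297 to 548 in not freeze-dried EVs. The liver marker miR-122-5p stood at 94.6 to 296 in freeze-dried EVs and 91.2 to 296 in not freeze-dried EVs. The epithelial list, led by miR-203-3p, had counts for 4 of 6 members and summed to 203 to 427 in freeze-dried EVs and 707 to 753 in not freeze-dried EVs. Its leading member alone stood at 118 to 403 TMM-normalised CPM in freeze-dried EVs and 657 to 711 in not freeze-dried EVs. The difference thus lay mostly in miR-203-3p. All freeze-dried libraries were below the others for 28 of the 327 tested miRNAs, or 8.56%. The epithelial sum was lower in every freeze-dried library, as the mesenchymal sum was, where miR-455-3p was higher. The part of either in that value was not tested. The endothelial list, led by miR-126a-3p, summed to 62.3 to 218 in freeze-dried EVs and 160 to 403 in not freeze-dried EVs, with 2 of 2 members. The members without counts, at 0 in all libraries, were miR-142a-3p and miR-142a-5p of the blood list and miR-200c-3p and miR-141-3p of the epithelial list. The striated muscle list, led by miR-1a-3p, summed to 3217 to 4692 in freeze-dried EVs and 3255 to 4194 in not freeze-dried EVs, with 3 of 3 members. The nervous system list, led by miR-129-5p, summed to 3087 to 6173 in freeze-dried EVs and 3057 to 5084 in not freeze-dried EVs, with 4 of 4.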

How the data were processed

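Per the labels' protocols, library fragments were selected by size, after preparation with NEXTFLEX Small RNA-seq kit v3, in a range of 126 to 169 bp. The authors deposited 1 table of raw counts, with a row for each mature miRNA. Its upstream tools, per the submitters' processing notes, were featureCounts 1.5.0-p1, Bowtie 1.1.2, cutadapt 2.3, bcl2fastq 2.20 and FastQC, with the build GRCm38, and the notes give them neither roles nor an order. Which miRNA annotation was counted, how reads with several matches and strand were handled, and whether PCR duplicates were removed is not given in the sources used here.

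R 4.3.3 and edgeR 4.0.16 were used for the quasi-likelihood test (robust, TMM, filterByExpr) of the counts over 5 libraries, without covariates. Adjusted p-values are Benjamini-Hochberg values with a threshold of 0.05. Strand usage was tested with diffSpliceDGE, with hairpin names as genes and strands as exons. An SE was taken as the log2 fold change over the root of its F statistic. Values per library were compared with exact permutation tests in scipy 1.17.1. The functions were tested on simulated counts. Deep means a total of 500000 counts or more. No pair of libraries held the same counts within sampling noise. The members and lists were chosen with earlier results of these data known. The miRNAs named are the 4 members, those sharing a seed with them and the 3 nearest to each in profile, for miR-455-5p only the nearest. From the cartilage list the 4 most abundant and the Sox9-linked ones are named. The leading one of each list of markers of other cell types and the neighbours in strand ratio complete the rule. miR-146a-5p, miR-199a-3p, miR-181a-5p, miR-29c-3p and the markers at 0 fall outside this rule and were named after their values were seen. Alternative fits used DESeq2 1.42.0 or limma-voom (limma 3.58.1), other filters and normalizations, thinned counts, a depth term, a replicate block, the deep libraries, or 1 library fewer.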

Additional observations from a re-analysis of the deposited data

How the results depend on the processing

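No strand was called under any of 16 alternative fits, of which 14 tested miR-455-5p, and the lowest adjusted p was 0.79. Strand usage was refitted under 11 alternatives for miR-140 and 9 for miR-455, with a lowest adjusted p of 0.70. The replicate numbers make only 2 pairs, whose deviations from the group means correlate at 0.15 and -0.11, so they are not taken to pair the libraries. With the replicate block the log2 fold change became 0.27 for miR-140-3p and -0.11 for miR-140-5p, the change of the miR-140 strand ratio became 0.38, and 4 miRNAs, none a member, were called lower. In the deep libraries alone 1 was called lower, miR-455-5p had 9.61 and its 3p share differed by -11.9 points. miR-455-5p had 0.37 with limma-voom and 0.81 with depth class as a term, and was not tested after thinning or without freeze-dried replicate 1. Without 1 library, the log2 fold changes ranged from -0.36 to 0.29 for miR-140-3p, 0.024 to 0.67 for miR-140-5p, 0.76 to 1.35 for miR-455-3p and -1.47 to 8.67 for miR-455-5p, and 0 miRNAs were called in either direction. Changes of the log2 strand ratio ranged from -0.85 to 0.27 for miR-140 and from -7.63 to 2.73 for miR-455. Differences of the 3p share ranged from -1.71 to 0.31 points for miR-140 and from -7.96 to 28.4 for miR-455, and that of the 4 strands together from -0.73 to 0.24 points of the library, with 0.24 without freeze-dried replicate 3 or not freeze-dried replicate 1. Cartilage list members above a fold of 1, an alternative chosen after seeing the data, numbered 15 in the reported fit, 11 with library totals only and 13 to 23 without 1 library, with 23 without not freeze-dried replicate 1. The cause of these changes was not tested. Below 1000 CPM, where 3 of the strands lie, the median SE was 2.08 on the log2 scale against 0.35 above it.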
